A study of Homo sapiens with 6 samples.

Results

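Of the 22724 H3K27ac peaks called in control Kasumi-1 cells on chromosomes 1 to 22 and X, 2039 (8.97%) shared no base with any peak called after knockdown of ANP32B. These 2039 regions are called lost peaks here, and the other 20685 are called kept peaks. The lost peaks were chosen by the measured peak positions of the Kasumi-1 libraries, so their absence after knockdown is not itself a finding. Lost means absent from the peak list of the knockdown library and does not say that no acetylation was left there. The lost peaks were narrow, with a median width of 456 bases, and 739 of them lay at promoters, 650 in introns and 396 between genes. At equal width, peaks with a high GC content were lost more often than GC-poor peaks. An MV4-11 control peak was present at 521 of the lost peaks (25.6%), against 67.1% of all control Kasumi-1 peaks.

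Acetylation at lysine 27 of histone H3 (H3K27ac) was profiled by CUT&Tag, in which an antibody brings a transposase to the modified histone so that the DNA around it is cut and tagged. The cells were the human acute myeloid leukemia lines Kasumi-1, which carries the RUNX1::RUNX1T1 fusion, and MV4-11, which carries a KMT2A fusion. In each line there was 1 H3K27ac library named NC, the control, labelled as untreated, and 1 library named shANP32B with a short hairpin RNA against ANP32B, a histone chaperone. The 2 IgG libraries, 1 per line, were not analysed here. Whether the NC cells of these libraries carried a control hairpin, and which ANP32B hairpin was used, is not given in the sources used here, nor is the age or passage of the cells. Replicates were merged before peaks were called, so each group is 1 list of positions. No test of a difference between groups was therefore possible, the depth behind each peak is unknown, and every difference below describes these libraries only. The sh-ANP32B list of Kasumi-1 held 23833 peaks on these chromosomes, more than the NC list, and the MV4-11 lists held 24491 (NC) and 22112 (sh-ANP32B).

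H3K27ac marks active promoters and active enhancers. It is written by the acetyltransferases EP300 and CREBBP and removed by histone deacetylases. Promoters of widely expressed genes often lie in CpG islands, stretches that are rich in G and C and have kept their CG dinucleotides, whereas most enhancers lie in introns or between genes and hold few CGs. Wide H3K27ac domains are typical of genes that define a cell type.

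The sequences below show the GC-rich composition of several lost peaks. They are the central 300 bases of 4 of them, read from the plus strand of hg38 and written 5′ to 3′, with every CG dinucleotide in capitals. All 4 are richer in GC than most lost peaks, whose central 300 bases had a median of 57% GC and 8 CG dinucleotides. The peak at BCL2 was added after its values were seen, because BCL2 was a gene of interest to the study, and the other 3 are among the widest lost peaks of a promoter, an exon or an intron. SYNGR2, a vesicle membrane protein gene, is shown at chr17:78168781-78169080 in intron 1. It held 37 CG dinucleotides and 78.3% GC. The stretch in coding exon 10 of ZFPM1, which encodes a cofactor of GATA proteins, was at chr16:88534587-88534886 and held 48 CG dinucleotides at 84.3% GC. The BCL2 stretch, upstream of this apoptosis inhibitor gene at chr18:63320179-63320478, held 45 CG dinucleotides at 76.3% GC. The stretch in intron 6 of CTBP1, a transcriptional co-repressor gene, at chr4:1214699-1214998, held 12 at 66.0% GC.
SYNGR2: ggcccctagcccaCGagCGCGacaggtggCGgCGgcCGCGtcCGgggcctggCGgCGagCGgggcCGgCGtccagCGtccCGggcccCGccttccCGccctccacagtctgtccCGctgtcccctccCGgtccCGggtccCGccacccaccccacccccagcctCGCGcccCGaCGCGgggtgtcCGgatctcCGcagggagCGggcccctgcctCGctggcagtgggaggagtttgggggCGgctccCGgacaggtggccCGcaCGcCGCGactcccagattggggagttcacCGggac
ZFPM1: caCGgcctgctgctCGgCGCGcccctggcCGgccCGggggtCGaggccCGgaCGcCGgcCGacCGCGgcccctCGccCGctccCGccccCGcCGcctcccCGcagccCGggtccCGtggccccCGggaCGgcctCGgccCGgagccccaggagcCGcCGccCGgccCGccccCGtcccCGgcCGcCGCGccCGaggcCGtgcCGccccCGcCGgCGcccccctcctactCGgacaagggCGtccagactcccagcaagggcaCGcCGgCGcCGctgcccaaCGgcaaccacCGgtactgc
BCL2: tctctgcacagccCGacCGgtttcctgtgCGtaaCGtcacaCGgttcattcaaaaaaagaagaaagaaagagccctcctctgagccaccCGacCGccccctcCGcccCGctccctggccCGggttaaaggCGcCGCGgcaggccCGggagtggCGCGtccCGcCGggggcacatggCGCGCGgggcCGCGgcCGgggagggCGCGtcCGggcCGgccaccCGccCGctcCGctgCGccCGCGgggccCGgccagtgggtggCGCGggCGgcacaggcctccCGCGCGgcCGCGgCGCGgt
CTBP1: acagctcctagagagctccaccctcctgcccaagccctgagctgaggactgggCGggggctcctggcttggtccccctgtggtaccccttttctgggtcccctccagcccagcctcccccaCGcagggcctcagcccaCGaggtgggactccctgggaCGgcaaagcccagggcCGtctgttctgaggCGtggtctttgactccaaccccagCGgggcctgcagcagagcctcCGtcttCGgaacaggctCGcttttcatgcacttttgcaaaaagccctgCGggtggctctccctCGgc

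Lost peaks were narrower than kept peaks. The median width was 456 bases for lost peaks, with quartiles of 396 and 630, and 1142 bases for kept peaks, with quartiles of 648 and 1886. Lost peaks ranged from 357 to 2386 bases, whereas the widest kept peak spanned 26984. Only 147 lost peaks (7.21%) were at least 1000 bases wide, against 56.4% of kept peaks. When all Kasumi-1 NC peaks were divided into 5 classes of nearly equal number by width, 28.0% of the narrowest class (1278 of 4557 peaks, 357 to 521 bases) were lost. The share was 10.8% in the second class, 4.67% in the third, 1.23% in the fourth and 0.110% (5 of 4541) in the widest. The lists hold no height, so narrow peaks could not be separated into weak and strong ones. Because the rule that chose the lost peaks acts on peak calls, which also set width, these values are a description.

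The nearest sh-ANP32B peak lay at a median distance of 6923 bases. It was within 1000 bases for 443 lost peaks (21.7%) and within 5000 bases for 917. The smallest distances were 9 bases for a peak in the 3′ UTR of SLC9A8, a sodium and proton exchanger gene, and 10 bases for an intergenic peak nearest to ANAPC1, which encodes a subunit of the anaphase-promoting complex. Just outside the rule, the kept peaks nearest to ZNF706 and BCORL1 shared only 3 and 4 bases with a sh-ANP32B peak. A sh-ANP32B peak that overlapped no NC peak lay within 1000 bases of 84 lost peaks (4.12%; 3.34 to 5.07) and of 4.67% of kept peaks. Another NC peak lay within 1000 bases of 19.4% of lost and 27.6% of kept peaks.

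Lost peaks had a higher GC content than kept peaks, and the difference was larger at promoters. Over all peaks the median GC was 57.1% for lost and 55.3% for kept peaks. At promoters, defined as within 2500 bases of the canonical start of a protein-coding gene, it was 68.8% for lost and 61.2% for kept peaks. Away from promoters (distal peaks) it was 53.4% for lost and 52.3% for kept peaks. Among the narrowest promoter peaks, of 357 to 521 bases, 15.9% of those in the GC-poorest class were lost (20 of 126; 95% interval 10.5 to 23.2), against 60.1% of those in the GC-richest class (191 of 318; 54.6 to 65.3). Among the narrowest distal peaks the share went from 20.2% (273 of 1352) to 66.4% (83 of 125; 57.7 to 74.1). In the next width class, 522 to 834 bases, it went from 1.71% to 30.4% at promoters and from 3.59% to 41.3% at distal sites. All intervals of shares are Wilson 95% intervals and cover counting error only.

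**Figure D1:**
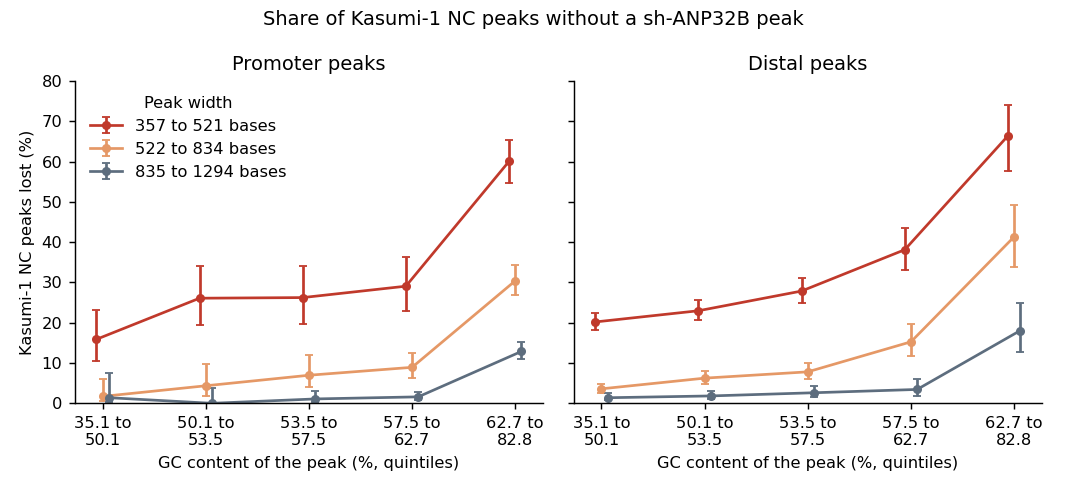
The share of Kasumi-1 NC peaks lost, in %, against 5 classes of GC content for promoter peaks (left) and distal peaks (right), with 1 line for each of the 3 narrowest width classes and bars for Wilson 95% intervals. In each line the GC-richest class, 62.7 to 82.8% GC, has the highest share, which reaches 60.1% at narrow promoter peaks and 66.4% at narrow distal peaks.

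Without regard to width the shares rose less evenly. Of distal peaks, 7.97% were lost in the GC-poorest class and 25.8% (184 of 713) in the richest. Of promoter peaks, 5.69% were lost in the poorest class, 3.20% in the fourth and 13.9% (532 of 3832) in the richest. A centre like a CpG island, with at least 50% GC and an observed to expected CG ratio above 0.6 over 300 bases, was found in 75.8% of lost and 70.9% of kept promoter peaks. It was found in 9.54% of lost and 8.46% of kept distal peaks. What links GC content and loss was not tested.

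By place, 36.2% of lost peaks were promoter peaks (739 of 2039; 34.2 to 38.4), against 40.3% of kept peaks, and 8.14% of all NC promoter peaks were lost. This order turned when peaks of like width were compared. The promoter share was 26.1% for lost and 17.1% for kept peaks in the narrowest class, 46.7% and 26.9% in the second, and 63.2% and 43.2% in the third. Among the 147 lost peaks of at least 1000 bases it was 66.7%, against 51.5% of the kept ones. Outside promoters, 31.9% of lost and 29.3% of kept peaks had their midpoint in an intron of a protein-coding gene. Intron 1 held 249 of the 650 intronic lost peaks. Exons held 73 lost peaks (3.58%), against 2.21% of kept peaks. Of these 73, 41 were in coding sequence, 31 in a 3′ UTR and 1 in a 5′ UTR. Another 181 lost peaks lay in other genes, 165 of them in long non-coding RNA genes, and 396 (19.4%) were intergenic, against 18.6% of kept peaks.

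**Figure D2:**
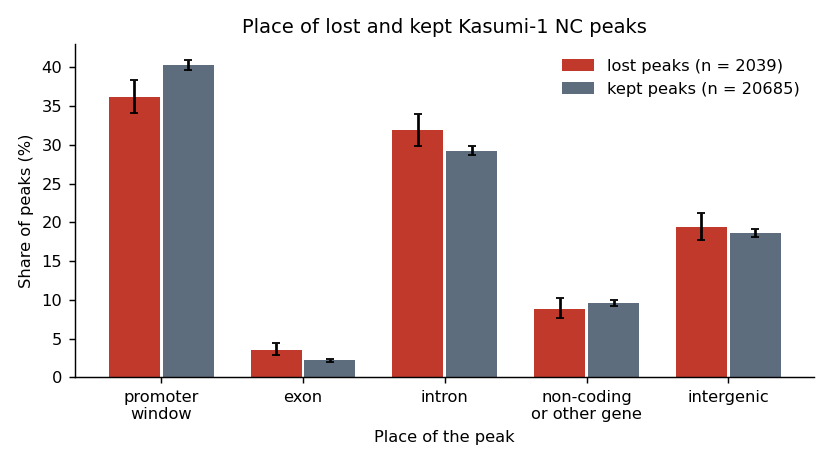
Bars give the share of peaks, in %, in each kind of place for the 2039 lost and the 20685 kept Kasumi-1 NC peaks, with Wilson 95% intervals. The promoter share is 36.2% for lost and 40.3% for kept peaks, and the intron share 31.9% and 29.3%.

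Lost promoter peaks often lay beside the start rather than over it. The start itself was covered by 348 of the 739 lost promoter peaks (47.1%) and by 82.2% of kept ones. Of the lost peaks, 297 (40.2%) were wholly downstream of the start and 94 (12.7%) wholly upstream, against 11.5% and 6.30% of kept peaks. Wide peaks cover a start more easily, so the sides were also compared within width classes. In the narrowest class 40.3% of downstream peaks were lost (179 of 444; 35.9 to 44.9), 35.8% of those over the start and 32.7% of those upstream, with overlapping intervals. In the second class the shares were 25.5% (95 of 372; 21.4 to 30.2) downstream, 14.8% (12.5 to 17.5) over the start and 10.4% upstream. In the third class they were 7.79% downstream (5.04 to 11.8), 6.45% over the start and 7.92% upstream, so the higher share downstream was not seen there.

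**Figure D3:**
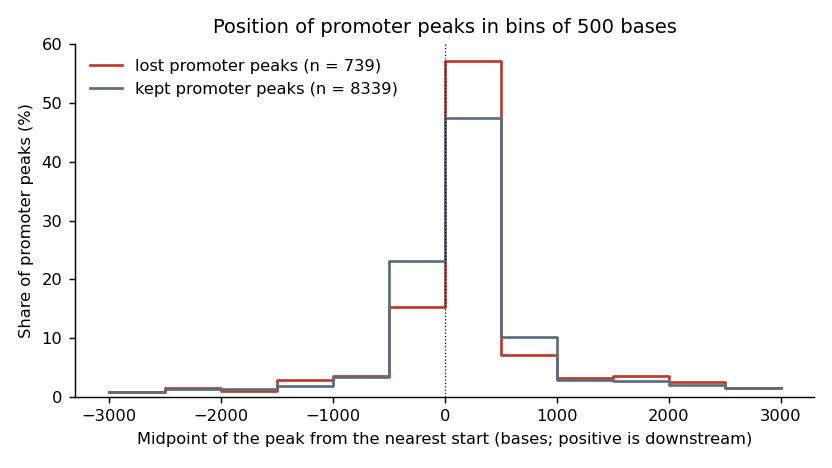
The share of promoter peaks, in %, by the distance of the peak's midpoint from the nearest start, in bins of 500 bases, for 739 lost and 8339 kept promoter peaks. The bin of the first 500 bases downstream holds 57.2% of lost and 47.5% of kept peaks, and the 500 bases upstream hold 15.3% and 23.1%.

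Short motifs were counted in the central 300 bases on both strands, with none of the 7 motifs contained in another. GGGCGG, the GC box bound by SP1, was present in 35.9% of lost, 32.6% of kept and 32.9% of all NC peaks. At promoters it was in 66.4% of lost and 56.9% of kept peaks. TGTGGT, the core bound by RUNX1, was in 18.1% of lost, 18.3% of kept and 18.3% of all peaks. CCGGAAG, a core of ETS factors, was in 4.32% of lost, 6.02% of kept and 5.87% of all peaks. At promoters it was in 7.31% of lost (5.64 to 9.41) and 11.0% of kept peaks (10.4 to 11.7). CCAAT, bound by NF-Y, was in 20.3% of lost, 24.0% of kept and 23.7% of all peaks, and in 16.6% of lost and 22.8% of kept promoter peaks. For CACGTG, the E-box of MYC, the shares of lost, kept and all peaks were 6.03%, 6.42% and 6.39%. For TGAGTCA, the AP-1 site, they were 5.0%, 5.80% and 5.73%, and for AGATAA, recognised by blood factors of the GATA family, 6.62%, 6.71% and 6.70%. Lost promoter peaks also had a higher GC content and covered the start less often, with 47.1% against 82.2% of kept ones. What part GC content or position has in the promoter differences in GC box, ETS core and CCAAT was not tested. A match is a string of letters and not a bound site.

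Of the 15 widest lost peaks, 12 were promoter peaks. The widest, chr1:6612998-6615383, spanned 2386 bases at 76.9% GC over the start of PHF13, a chromatin reader of methylated histone H3. No peak overlapped it in Kasumi-1 sh-ANP32B or in either MV4-11 library, and the nearest sh-ANP32B peak was 8142 bases away. BCL7A, a subunit of the SWI/SNF remodeler, lost a peak of 2069 bases, and AGRN, which encodes the matrix protein agrin, one of 2142 bases. Neither had an MV4-11 peak. DNMT3A, the de novo DNA methyltransferase that is often mutated in AML, lost the peak at chr2:25341192-25342987 over the start of its canonical transcript. That peak was 1796 bases wide with 77.8% GC, and the nearest sh-ANP32B peak was 19665 bases away. Others were at CCDC92 and ZNF664, which share 1 peak of 1995 bases, at SYNGR2 (1901 bases), TMEM256 (1764 bases) and the stathmin gene STMN3 (1695 bases).

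Some wide lost peaks were present in MV4-11. The peak at PCGF3, a Polycomb ring finger gene, was 2221 bases wide in Kasumi-1 NC, absent in Kasumi-1 sh-ANP32B, and overlapped by MV4-11 peaks of 3256 bases in the control and 3112 bases in the knockdown. At SELENOO, a mitochondrial selenoprotein gene, the widths were 1994 bases in Kasumi-1 NC and, for MV4-11, 874 bases in NC against 547 in sh-ANP32B. The peak in intron 6 of CTBP1 was 1672 bases wide with a sh-ANP32B peak 484 bases away, and had MV4-11 peaks of 1132 and 819 bases. TEF, TUFM and DCAF1, which encode a circadian transcription factor, a mitochondrial elongation factor and a ubiquitin ligase receptor, had lost peaks of 1586, 1480 and 1461 bases and peaks in both MV4-11 libraries.

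Other lost peaks had an MV4-11 NC peak that was itself absent from MV4-11 sh-ANP32B. The peak in intron 5 of TTYH3, a membrane channel gene, was 2092 bases wide in Kasumi-1 NC and 3995 bases in MV4-11 NC, with none over the Kasumi-1 peak in either sh-ANP32B library. The nearest sh-ANP32B peak lay 829 bases from it in Kasumi-1 and 1427 bases from it in MV4-11. At LCOR, a nuclear receptor co-repressor gene, the widths were 1914 bases in Kasumi-1 NC and 494 bases in MV4-11 NC. The kinase gene SIK1 had 1546 and 338 bases, and the BMP receptor gene BMPR1A 1385 and 930 bases. For RAPGEF3, an exchange factor activated by cyclic AMP, they were 1414 and 678 bases, and for MAFK, a small MAF factor, 1377 and 899 bases. At FOXC1 and HRAS 1 MV4-11 NC peak was absent after knockdown as well, but another MV4-11 sh-ANP32B peak, of 433 and 497 bases, lay under the same Kasumi-1 peak.

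Over all lost peaks, 25.6% overlapped an MV4-11 NC peak (521 of 2039; 23.7 to 27.5), against 71.1% of kept peaks and 67.1% of all Kasumi-1 NC peaks. The MV4-11 sh-ANP32B list had a peak at 20.8% of lost and 60.6% of kept peaks, and at 57.0% of all. Both MV4-11 libraries had one at 303 lost peaks (14.9%), and neither had one at 1396 (68.5%, against 24.8% of kept peaks). Narrow peaks had an MV4-11 peak less often in both sets. The lower share of lost peaks was also seen at equal width, with 23.1% against 46.0% in the narrowest class, 25.6% against 59.1% in the second and 34.4% against 68.4% in the third. Without regard to width, an MV4-11 NC peak was present at 22.5% of lost and 72.3% of kept promoter peaks, and at 27.3% and 70.4% of distal peaks. In the narrowest class the shares were 16.5% and 35.3% at promoters and 25.4% and 48.2% at distal sites. A peak in MV4-11 sh-ANP32B with none in MV4-11 NC was present at 122 lost peaks (5.98%), against 4.24% of all Kasumi-1 NC peaks. These shares are not on like terms, since only a peak without an MV4-11 NC peak can be counted. Among such peaks, MV4-11 sh-ANP32B had a peak at 122 lost peaks and none at 1396. For kept peaks the counts were 841 and 5127, so the share was lower among lost peaks.

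**Figure D4:**
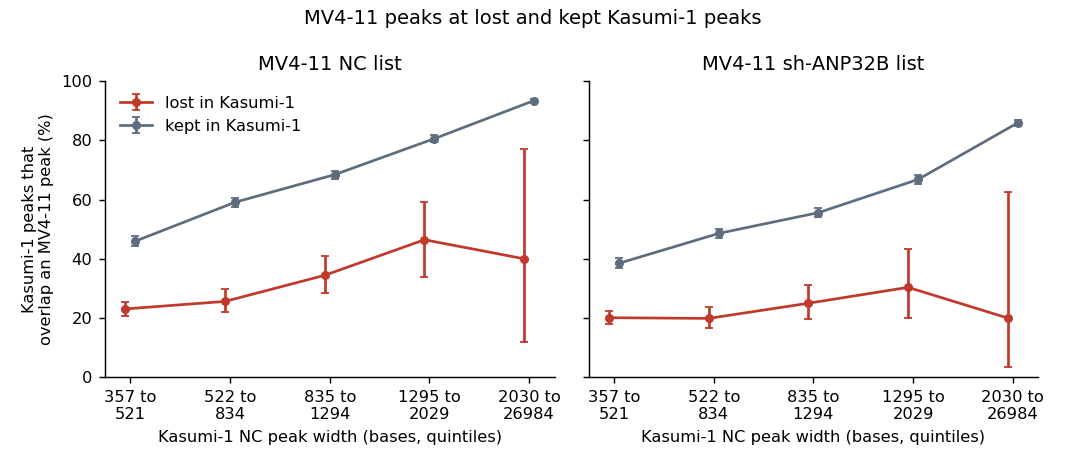
The share of Kasumi-1 NC peaks, in %, that overlap a peak of MV4-11 NC (left) or MV4-11 sh-ANP32B (right), against 5 classes of peak width in bases, for lost and kept peaks with Wilson 95% intervals. Lost peaks are below kept peaks in every width class, with 23.1% against 46.0% for MV4-11 NC in the narrowest, and the widest class holds only 5 lost peaks.

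The loss of these sites in MV4-11 was compared with that of other MV4-11 peaks. Of the 486 MV4-11 NC peaks under lost Kasumi-1 peaks, 193 (39.7%; 35.5 to 44.1) had no MV4-11 sh-ANP32B peak. The share was 22.3% of the 15480 MV4-11 NC peaks under kept Kasumi-1 peaks, 40.8% of the 8525 under no Kasumi-1 NC peak, and 29.1% of all. The first group was narrower than the second, with a median width of 632.5 against 1027.5 bases. Within 5 width classes of the MV4-11 peaks, the shares under lost and kept Kasumi-1 peaks were 67.7% (59.1 to 75.3) and 62.3% in the narrowest, 46.7% and 43.0% in the next, 31% and 24.9% in the third, 11.9% and 9.36% in the fourth, and 4.44% and 1.70% in the widest. Each share under lost peaks was the higher of the pair, and in each class its interval held the share under kept peaks.

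Counted by gene, a Kasumi-1 NC peak lay in the promoter window of 9541 protein-coding genes, and 648 of them (6.79%) had none in sh-ANP32B. A lost peak lay in the window of 795 genes, 155 of which still had a sh-ANP32B peak there. Of the 648 genes left without a peak, 162 (25%) had a promoter peak in MV4-11 NC, against 75.5% of the 8893 genes that had a Kasumi-1 sh-ANP32B promoter peak. Both MV4-11 libraries had one at 88 of the 648 genes (13.6%), against 58.3%. The other 74 of the 162 (45.7%; 38.2 to 53.4) were left without one in MV4-11 too, against 1533 of 6717 (22.8%), and these genes were not matched for peak width. The lost peaks were nearest to 1768 different genes, 1545 of which had just 1.

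Of the 14 BCL2 family genes with an NC promoter peak, 2, BCL2 and BIK, were left without one. The share over all genes with an NC promoter peak was 6.79%, and nothing is read from this count. BCL2, the inhibitor of apoptosis, had 1 promoter peak of 993 bases in Kasumi-1 NC, at chr18:63319832-63320824, 63 bases upstream of the start and with 74.2% GC. It had none in Kasumi-1 sh-ANP32B, where the nearest peak was 47054 bases away, and none in MV4-11 NC or sh-ANP32B. BIK, which encodes a pro-apoptotic BH3-only protein, had a peak of 693 bases in Kasumi-1 NC and none in the other libraries. Of the 61 NC peaks nearest to a BCL2 family gene, 10 were lost (16.4%). Of these, 3 each were nearest to BCL2A1 and BCL2L11 and 1 each to BCL2, BIK, BMF and HRK. Nearest does not mean close, since the 3 for BCL2L11 lay 288144 to 330906 bases from its start, in long non-coding RNA genes. The share over all NC peaks was 8.97%. For the other 13 gene lists it ran from 4.35% (2 of 46, histone acetylation enzymes) to 12.6% (16 of 127, ion channels), with 11 of 168 for blood stem-cell factors and 12 of 120 for myeloid genes.

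Of the 22 p53 targets with an NC promoter peak, TIGAR and ZMAT3 were left without one, as were CYLD and NFKBIB of 18 NF-kappaB genes. Over all genes with an NC promoter peak the share was 6.79%, and nothing is read from the counts of these lists. CYLD, a deubiquitinase, had a peak of 1219 bases in Kasumi-1 NC, none in Kasumi-1 sh-ANP32B or MV4-11 NC, and one of 328 bases in MV4-11 sh-ANP32B. NFKBIB, which encodes an inhibitor of NF-kappaB, and the deacetylase gene SIRT2 start head to head and shared 1 lost peak of 398 bases. SIRT2 was the only one of 26 histone acetylation enzyme genes left without a promoter peak. Of 25 myeloid genes it was IRF8, a factor of monocyte development, whose peak of 357 bases was as narrow as any in the list.

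None of 23 blood stem-cell factors, 54 MYC targets, 36 cell cycle genes, 24 genes of RAS and STAT feedback and 83 ribosomal protein genes was left without a promoter peak. The median width of a gene's widest NC promoter peak was 3696 bases for the stem-cell factors, 1727 for MYC targets, 2198 for the cell cycle list, 2897.5 for RAS and STAT feedback and 1537 for ribosomal proteins, against 1479 for all genes. Of 253 zinc finger genes, with a median of 1241 bases, 13 were left without a peak, among them ZNF664 (1995 bases), ZNF641 (980 bases) and ZNF784 (957 bases). The remaining lists were developmental factors (2 of 47, FOXC1 and SOX13), ion channels (2 of 30, TRPM4 and CLCN5) and collagens and cadherins (CDH24, 1 of 2). The share over all genes was 6.79%, and nothing is read from these counts since the same contrast chose the peaks.

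**Figure D5:**
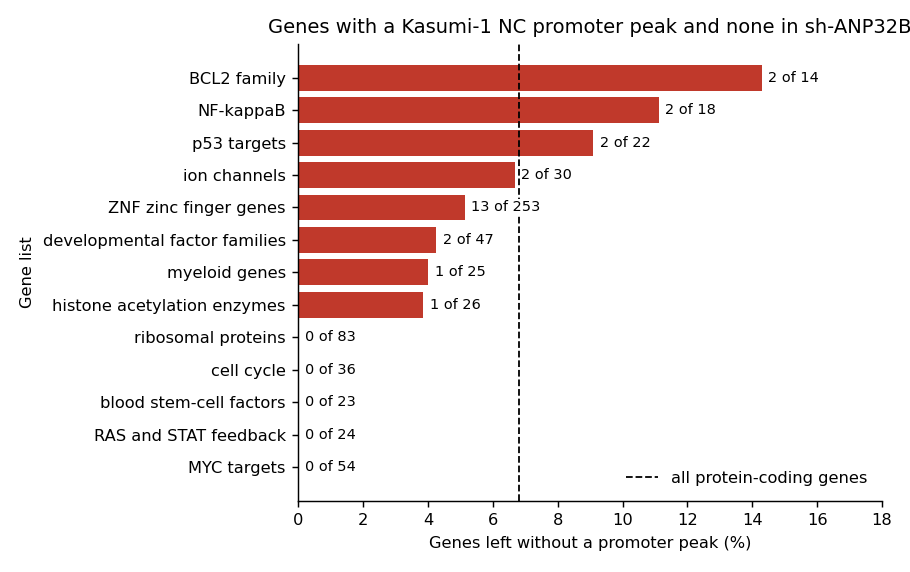
Bars give the share of genes with a Kasumi-1 NC promoter peak that have none in sh-ANP32B, in %, for the 13 gene lists with at least 10 such genes, with the counts beside them and a dashed line at the 6.79% of all protein-coding genes. The BCL2 family has 2 of 14, and 5 lists have 0.

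Of the genes the study followed, MYC had a promoter peak in both Kasumi-1 libraries, with 3828 and 3843 bases of the window covered. CTPS1, MCM6, RANBP1, TRMT2A, CCNB1, CDK2 and PLK1 also kept theirs. In the other line, which carries a KMT2A fusion, MYC had 893 bases covered in NC and 0 in sh-ANP32B. For CCNB1 the values there were 675 and 0, and CDK2 had 0 in both. CTPS1, MCM6, RANBP1, TRMT2A and PLK1 had a promoter peak in both libraries of that line. The paper reported a lower acetylation signal at MYC, CTPS1, MCM6, RANBP1 and TRMT2A after knockdown. Peak lists hold no height, so such a change under a kept peak could not be seen. In Kasumi-1 the window of ANP32B itself had 3447 bases covered in NC and 3432 in sh-ANP32B. This does not check the knockdown, since a hairpin acts on the RNA. The only lost peaks nearest to one of these genes or to BCL2 were the BCL2 peak and a peak of 391 bases that lay 38870 bases from the start of CTPS1.

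Part of the lost peaks lay in sequence whose short words occur more than once in the genome, where the placing of short reads can be uncertain. Read length was not examined. A peak was counted as recurring when at least 50% of the 31-base words in its centre had another copy. This held for 376 lost peaks (18.4%; 16.8 to 20.2) and 13.8% of kept peaks. The longest run of neighbouring lost peaks was of this kind. It held 6 peaks in 18368 bases at chr1:228619584-228637951, among the 8 annotated 5S ribosomal RNA genes from RNA5S6 to RNA5S13, with RHOU as the nearest protein-coding start. The median number of copies of their words was 17 to 19. The next run held 4 peaks of 878 to 1479 bases in the long non-coding gene ENSG00000283360, nearest to FCGR2A, with 4 copies each. All 4 had a peak in MV4-11 NC and none in MV4-11 sh-ANP32B. Another 5 were nearest to TPTE on chromosome 21, with 2 to 4 copies. How reads in such sequence were treated is not given in the sources used here, and the part of this in the loss was not tested. Without the recurring peaks 1663 lost peaks remained, with a median GC of 59.1% against 56.2% for kept peaks.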

How the data were processed

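Per the study's methods, the authors aligned CUT&Tag reads to hg38 with Bowtie2, removed duplicates with Picard, merged replicates with samtools and called peaks with MACS2 at a q-value of 0.01. The submitters' processing notes name Bowtie2 2.4.4 and MACS3 3.0 instead. Whether IgG served as control is not stated. The deposited lists give chromosome, start, end and length in bases (positions from 1), with no other unit, no count and no height, so depth and precision per peak are unknown. The smallest width and gap differed between lists, from 275 to 357 bases and 276 to 358 bases.

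Groups came from the labels. The 4 lists held 96832 peaks, and 0 lay outside the hg38 reference. Peaks on chromosomes 1 to 22 and X were compared by at least 1 shared base. Places, GC, motifs and starts of 19970 protein-coding genes came from hg38 and GENCODE, and a peak whose place was not a promoter was placed by its midpoint. Classes of width and GC are quintiles of all Kasumi-1 NC peaks. With 1 list per group there was no replicate and no test. Shares have Wilson 95% intervals. The members, the 14 gene lists and the rules were chosen with earlier results of these data known. Genes were named for being among the 15 widest lost peaks or promoter peaks, the 10 widest also lost or present in both libraries of MV4-11, nearest to 3 or more lost peaks, in a list and left without a promoter peak, or followed by the study. The peaks nearest to and farthest from a sh-ANP32B peak, those just outside the rule and those present only in MV4-11 sh-ANP32B were named after their values were seen. Some items chosen by these rules are not reported here. Interval handling and word counting were tested on simulated peaks. Python 3.11.15, numpy 2.4.6, pandas 2.3.3, scipy 1.17.1 and numba 0.67.0 were used.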

Additional observations from a re-analysis of the deposited data

Results flagged for a closer look

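At 122 of the 2039 lost Kasumi-1 peaks (5.98%; 5.03 to 7.10) the change went the other way in MV4-11, with an MV4-11 sh-ANP32B peak and no MV4-11 NC peak. Such sites were picked out because the lines moved in opposite directions, and this difference was not tested. Only a peak without an MV4-11 NC peak can be counted, and 25.6% of lost against 71.1% of kept peaks had one. Among peaks without one, MV4-11 sh-ANP32B had a peak at 122 lost peaks and none at 1396, against 841 and 5127 kept peaks. On that base the share was lower for lost peaks. The shares of lost and kept peaks given next are over all peaks of each set and are therefore not on like terms. The share was 4.07% for kept peaks and 4.24% for all Kasumi-1 NC peaks. By width it was 6.26% for lost and 7.53% for kept peaks in the narrowest class, 5.74% and 5.11% in the second and 6.60% and 4.59% in the third, where the interval for lost peaks (3.97 to 10.8) held the share of kept peaks. The widest of the 122 was an intergenic peak of 1274 bases nearest to APOBEC3A, a cytidine deaminase gene of myeloid cells, with an MV4-11 sh-ANP32B peak of 2327 bases. An MV4-11 NC peak lay only 562 bases from this Kasumi-1 peak. CYLD, ADD1 and PFKFB3, which encode a deubiquitinase, the cytoskeletal protein adducin and a regulator of glycolysis, followed with promoter peaks of 1219, 1193 and 1092 bases and MV4-11 sh-ANP32B peaks of 328, 366 and 660 bases. CHSY1, a chondroitin synthase gene, had one of 1176 bases in intron 2.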

How the results depend on the processing

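No paired analysis was possible because each group has 1 peak list and no result comes from a test. Recomputed shares and medians were set against the 95% interval of the main value, and counts against a change of at most 1.5 times. Of 34 recomputed values, 14 stayed within these limits and 20 did not, and the cause was not tested. With only NC peaks of at least 1000 bases there were 147 lost peaks, with a median GC of 69.3%, a promoter share of 66.7%, an MV4-11 NC share of 40.1% and 110 genes left without a promoter peak. The promoter share was then above that of kept peaks, by 15.1 percentage points, where it had been below. Over the other definitions of loss the number was 1598 to 2697. At least 1000 bases from a sh-ANP32B peak, the median width was 468, the median GC 58.9% and the promoter share 39.9%. Without peaks whose central bases recur, which was added once the data had been seen, these were 467, 59.1% and 41.6%, and the GC box share was 38.5%. The kept peaks then had a median GC of 56.2% and a promoter share of 44.4%. The promoter share was 31.1% with a window of 1000 bases (kept peaks 36.4%) and 49.4% with the starts of every transcript (kept peaks 51.4%). The intron share was 28.7% when any base in an exon counted as exon. The MV4-11 NC share was 18.5% with at least 50% of the peak covered (kept peaks 51.5%), 39.4% with a peak within 1000 bases (kept peaks 78.0%) and 23.3% (kept peaks 68.5%) with 1 smallest width and 1 joining gap for all lists, both 357 bases. The share also lacking in MV4-11 sh-ANP32B was 34.3% with at least 50% covered. The GC box share was 29.0% in the central 200 bases (kept peaks 25.3%). The direction of the difference from kept peaks in GC and in the MV4-11 share was the same under each alternative run for it. Unknown depth and merged replicates limit all of these values.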

Other observations

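At 33 genes, 3 or more lost peaks had that gene as the nearest. These genes were picked for that number, and 8.97% of all NC peaks were lost. The number of sh-ANP32B peaks nearest to a gene is given beside the loss, since it can be as high as that of NC peaks. PREX1, which encodes a RAC exchange factor of neutrophils, had 6 lost of 32 NC peaks, 4 of them with the midpoint in a PREX1 intron, with widths of 383 to 1050 bases, and 28 sh-ANP32B peaks were nearest to it. HES1, a repressor downstream of NOTCH, had 4 of 8, of 461 to 744 bases, and 4 sh-ANP32B peaks. TLE3, a co-repressor, had 4 lost of 14 NC peaks and 13 sh-ANP32B peaks. SIRPA, an inhibitory receptor of myeloid cells, had 4 of 18 and 17 sh-ANP32B peaks, and LPIN1, a lipid phosphatase gene, 4 of 16 and 13. FOXN3, a forkhead repressor, had 4 of 19 but 20 sh-ANP32B peaks. BCL11A, a blood transcription factor gene, had 3 of 15 and 12 sh-ANP32B peaks. Its lost peaks had widths of 374 to 455 bases, and the MV4-11 lists each had a peak at 2 of the 3. ETV6, another blood transcription factor gene, had 3 of 20 and 19 sh-ANP32B peaks.

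The lost peaks farthest from any Kasumi-1 sh-ANP32B peak were a pair nearest to PCDH9, a protocadherin gene, with 5206492 and 5094202 bases to the nearest one. They were 436 and 416 bases wide, and MV4-11 had peaks of 2434 and 719 bases in NC and 2467 and 733 bases in sh-ANP32B at these sites. A lost peak nearest to CDH8 was 583 bases wide, with MV4-11 peaks of 1842 and 2003 bases. The lost promoter peak of IL1RAP, which encodes an interleukin-1 receptor subunit found on AML stem cells, was 1343 bases wide and 1540719 bases from the nearest sh-ANP32B peak, with no MV4-11 peak. By chromosome, the share lost ran from 6.25% on chromosome 21 to 10.4% on chromosome 4.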
